A study of Mus musculus with 6 samples.

Results

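Ifi44, Xaf1, Ifi27, Ifi27l2a, Ifi35, Nmi, Rtp4, Rnf213, Samd9l and Ddx60 are interferon-stimulated genes (ISGs) that stand alone or in small families, and their transcripts were followed in mouse embryonic fibroblasts (MEFs) with and without Yme1l. They are 10 of 51499 loci in the count table and were found by gene symbol. The genes were chosen with the measured difference between the genotypes in view, so that difference is given for them as a description. Where a member is said to be called or not, the word places it among all loci fitted and is not a test of the member. Their working name called them strongly induced, which held for 9 of them, while the values of Ddx60 overlapped between the genotypes.

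The product of Yme1l, YME1L, is a protease anchored in the inner membrane of mitochondria. Both groups came from primary MEFs with loxP-flanked Yme1l alleles that were immortalized with SV40 large T antigen. After Cre recombinase was introduced, single clones were grown up. Genotyping then sorted them into WT, which kept the loxP-flanked alleles, and Yme1l-/-. Each of the 2 genotypes was sequenced in 3 cultures, all untreated, and what differs between clones cannot be told apart from what differs between genotypes. The p-values below therefore measure the spread between cultures.

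Interferon-stimulated genes are switched on when type I interferon binds its receptor and the kinases JAK1 and TYK2 activate transcription factors, STAT2 and IRF9 among them, that act at a DNA element built from repeated GAAA. Mitochondrial or nuclear DNA in the cytosol can start this programme through the sensor cGAS and its adaptor STING, and double-stranded RNA can do so through RIG-I and MDA5. The products of the genes act at many points, from sensing and ubiquitin transfer to apoptosis and the handling of viral RNA.

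Promoter sequences are shown because these 10 genes are classed together by their control and not by their proteins. The RefSeq table for GRCm38.p6, with 250 bases before and 50 after each transcript start, held 7 of the 10 genes and had no entry for Ifi27, Ifi27l2a and Rtp4. The stretches below hold each match to 2 GAAA repeats spaced by 1, 2 or 3 bases, read along the strand of the gene and with the match in capitals (TTTC where the repeat lies on the opposite strand). Overlapping matches share 1 run of capitals.
Ifi44, chr3:151749950-151750010, minus strand: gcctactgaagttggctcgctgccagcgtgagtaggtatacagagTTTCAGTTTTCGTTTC
Xaf1, chr11:72301629-72301658, plus strand: tgtgtgcaaaGAAACGAAActccacagaag
Ifi35, chr11:101448412-101448441, plus strand: agcagaattcacaGAAATGAAAgtggaagt
Samd9l, chr6:3399522-3399551, minus strand: gtatcagaatcGAAACTGGAAActgaagca
Ddx60, chr8:61927987-61928077, plus strand: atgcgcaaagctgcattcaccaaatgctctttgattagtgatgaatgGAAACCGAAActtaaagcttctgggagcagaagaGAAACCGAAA

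The spacing of 2 bases (GAAANNGAAA, both strands) is that of the classical interferon-stimulated response element, and 3.44% of 32851 promoters in the table held it. Ddx60 alone of the 7 genes matched it, at -53 to -44 and again at -19 to -10, where 1 is the first base of the transcript. GAAANGAAA was found in 3.17% of all promoters and in 3 of the 7, at -48 to -40 in Ifi44, at 11 to 19 in Xaf1 and at 14 to 22 in Ifi35. GAAANNNGAAA was found in 2.75% of all promoters and in Ifi44 (-55 to -45) and Samd9l (32 to 42). Any of the 3 spacings was present in 8.61% of all promoters and in 5 of the 7 genes. The spacings of 1 and 3 bases were added after the promoters had been searched for the first.

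A gamma-activated site (TTCNNNGAA) was found in 8.3% of promoters and only in Ifi35 among the 7 genes, at 8 to 16, where it overlapped the GAAA match. TATAAA was found in 13.6% of promoters and in Nmi (-26 to -21) and Ddx60 (4 to 9). Rnf213 had no match, and its RefSeq start lay upstream of the first base of the authors' locus. For Ifi44 the authors' locus starts upstream of the RefSeq start, at base 151749960 on the minus strand. Its GAAANGAAA match, at the end of the printed stretch (base 151749950), thus lies inside that locus. These matches describe letters in a window and do not show binding.

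**Figure D1:**
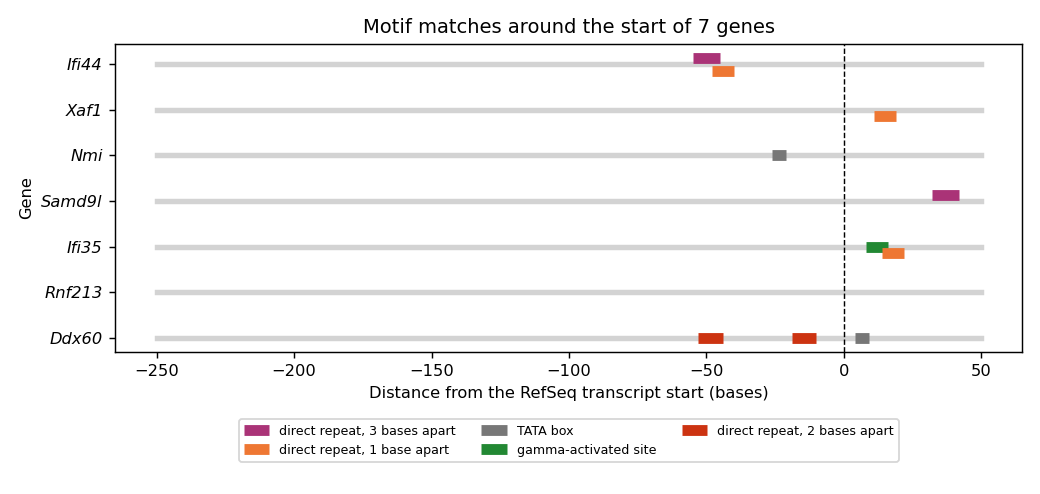
Position of each motif match in 7 genes, with the distance from the RefSeq transcript start in bases on the x axis, a grey line for the window searched and coloured bars for matches (direct repeats are 2 GAAA units). Ddx60 alone carried the 2-base spacing, and Rnf213 carried no match.

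The 6 libraries held between 33180867 and 49351107 counted fragments, with 34624075 in Yme1l-/- culture 1 against 49351107 and 49157459 in cultures 2 and 3. Yme1l1, the targeted gene, stood at 189 CPM (counts scaled to a library of 1000000 fragments) in WT and 39.1 CPM in Yme1l-/- cells, so 20.7% of its signal was left. Of 13867 loci that passed a filter on low counts, 33.6% were called higher and 34.1% lower in Yme1l-/- cells (adjusted p under 0.05), and 9.1% were called and at least 2-fold higher. The 3 Yme1l-/- libraries all lay above the 3 WT libraries at 35.9% of loci. Differences also ran by chromosome, and the median log2 fold change of the chromosomes that carry members lay between -0.44 for chromosome 12 and 0.36 for chromosome 11.

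All 10 genes passed the filter, 9 were called higher and at least 2-fold higher, and in the same 9 every Yme1l-/- library lay above every WT library. Because the genes were picked on this contrast, nothing is read from that count against the shares of all loci. Their median log2 fold change was 1.94, against -0.004 over all loci tested. In 3 genes the mean differed by more than 17-fold, in 6 between 3-fold and 5-fold, and in Ddx60 by 1.28-fold. In RNA from whole cultures, fewer expressing cells and less RNA per cell cannot be told apart.

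**Figure D2:**
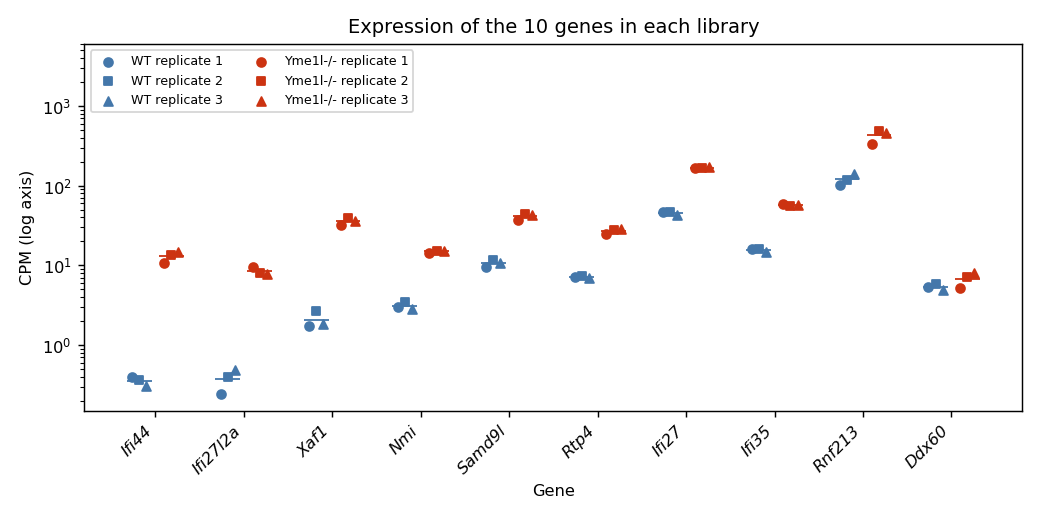
Expression of the 10 genes in each library, with CPM on a log axis, WT in blue, Yme1l-/- in red, 1 point per culture and a line at the mean of each genotype. All red points lie above the blue ones in 9 genes, and in Ddx60 the Yme1l-/- culture 1 lies at 5.23 CPM, within the WT range of 4.84 to 5.77 CPM.

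Ifi44 is a cytoplasmic protein with a predicted GTP-binding region and an antiproliferative action in some cells. Its locus lies on chromosome 3 between bases 151730922 and 151749960 of mm10 (minus strand). WT cultures 1, 2 and 3 held 0.393, 0.366 and 0.306 CPM, and Yme1l-/- cultures 1, 2 and 3 held 10.7, 13.6 and 14.5 CPM. The gene was thus close to silent in WT cells, at 10 to 13 fragments a library, and the groups did not overlap. The mean was 0.355 ± 0.0443 CPM in WT and 12.9 ± 2.00 CPM in Yme1l-/- cells (SD, n = 3), and the fitted log2 fold change of 5.17 ± 0.18 (SE) was the largest among the 10 genes.

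Ifi27l2a and Ifi27 encode small hydrophobic proteins of the ISG12 family, which are found at mitochondria and the nuclear envelope. The 2 genes are neighbours on chromosome 12, with Ifi27 on the plus strand (103434211 to 103440239) and Ifi27l2a on the minus strand (103442167 to 103443680), 1.9 kb apart. Ifi27l2a stood at 0.242, 0.397 and 0.49 CPM in the WT cultures and at 9.51, 7.95 and 7.77 CPM in the Yme1l-/- cultures. Its WT libraries held only 8 to 16 fragments each, and Yme1l-/- culture 1 was the highest of all. Between means of 0.376 ± 0.125 and 8.41 ± 0.958 CPM (SD, n = 3) the log2 fold change was 4.47 ± 0.20 (SE).

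For Ifi27 the WT cultures gave 47.3, 47.2 and 42.2 CPM and the Yme1l-/- cultures gave 165, 165 and 172 CPM. The gene was well expressed in the WT cultures, and its libraries were close together within each genotype. Its means of 45.6 ± 2.9 and 167 ± 4.1 CPM (SD, n = 3) gave a log2 fold change of 1.88 ± 0.06 (SE). The adjacent gene pair therefore differed in its ratios, 22.2-fold for Ifi27l2a and 3.67-fold for Ifi27, although the step in CPM was larger for Ifi27. Per kilobase of exon, Ifi27 added 118 CPM. How fragments shared by near-identical copies of this family were counted is not stated, so the split between its members is uncertain. A further copy, Ifi27l2b, had 0 fragments in every WT library and 11, 9 and 12 in the Yme1l-/- libraries, which at 0.243 ± 0.0682 CPM (SD, n = 3) was at least 2.64-fold higher than 3 counts per WT library.

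Xaf1 encodes a zinc-finger protein that binds the caspase inhibitor XIAP and counters it, which favours apoptosis. The gene lies on the plus strand of chromosome 11 (72301629 to 72313733). It was measured at 1.72, 2.66 and 1.84 CPM in the WT cultures and at 31.8, 39.5 and 36.1 CPM in the Yme1l-/- cultures. In both genotypes culture 2 was the highest, and the groups stood far apart. Xaf1 averaged 2.07 ± 0.51 CPM in WT and 35.8 ± 3.86 CPM in Yme1l-/- cells (SD, n = 3), and the fitted log2 fold change was 4.11 ± 0.14 (SE). Its partner Xiap, named after its value was seen, fell from 123 ± 5.21 to 96.6 ± 6.94 CPM (SD, n = 3; log2 fold change -0.35 ± 0.06, edgeR adjusted p = 0.00027). Birc2, a relative of Xiap that was likewise named after its value was seen, rose by 0.44 ± 0.06 (log2, edgeR adjusted p = 9.4e-05), while the related Birc3 had a log2 fold change of -0.08 ± 0.18 and was not called (edgeR adjusted p = 0.712).

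Nmi and Ifi35 bind each other through paired interaction domains, and Nmi was named for its binding to N-MYC and to STAT proteins. Nmi (chromosome 2, 51948487 to 51973494, minus strand) stood at 3.02, 3.45 and 2.85 CPM in WT and at 14.2, 15.3 and 15.2 CPM in Yme1l-/- cultures. Ifi35 (chromosome 11, 101448407 to 101458698, plus strand) stood at 16.1, 16.1 and 14.7 CPM in WT and at 59.1, 55.8 and 56.5 CPM in Yme1l-/- cultures. Neither gene overlapped between the genotypes, and the WT cultures of Nmi were spread more widely, relative to their mean, than those of Ifi35. Nmi averaged 3.11 ± 0.311 CPM in WT and 14.9 ± 0.608 CPM in Yme1l-/- cells (SD, n = 3), and Ifi35 averaged 15.6 ± 0.799 and 57.1 ± 1.71 CPM (SD, n = 3). The log2 fold change was 2.26 ± 0.10 (SE) for Nmi and 1.87 ± 0.06 (SE) for Ifi35. Per kilobase of exon, the level of Ifi35 was above that of Nmi in both genotypes, at 11.5 against 1.86 CPM in WT and 41.9 against 8.94 CPM in Yme1l-/- cells.

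Rtp4 encodes a zinc-finger protein that helps G protein-coupled receptors reach the cell surface and restrains some viruses. The authors' locus on chromosome 16 runs from 23451785 to 23614222 and carries 2 Ensembl identifiers, while the annotated coding transcripts of Rtp4 span 23520291 to 23614222 on the plus strand, so fragments outside Rtp4 may be included. WT cultures gave 7.04, 7.33 and 6.92 CPM and Yme1l-/- cultures gave 24.5, 27.9 and 28.2 CPM. The WT values were nearly level and lay below all Yme1l-/- values. Means of 7.09 ± 0.211 and 26.8 ± 2.06 CPM (SD, n = 3) corresponded to a log2 fold change of 1.92 ± 0.08 (SE). Rtp1 and Rtp2 had no fragments in any library and Rtp3 had 1 fragment in all, so within its family only Rtp4 was detected at this depth beyond a single fragment.

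Samd9l encodes a large cytoplasmic protein that slows proliferation and represses translation. Its locus is on the minus strand of chromosome 6 (3372257 to 3399572). WT cultures held 9.63, 11.7 and 10.6 CPM of Samd9l against 36.9, 44.3 and 43.2 CPM in Yme1l-/- cultures. Culture 1 was the lowest in both genotypes, and the groups did not overlap. From 10.6 ± 1.02 to 41.5 ± 4.0 CPM (SD, n = 3), the log2 fold change was 1.97 ± 0.09 (SE).

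Rnf213, a very large protein with an ATPase core and a ubiquitin ligase domain, is known from moyamoya disease in humans. Its locus runs from 119393100 to 119491298 on the plus strand of chromosome 11, and its exons cover 16888 bases. The WT cultures gave 103, 119 and 140 CPM and the Yme1l-/- cultures 335, 487 and 455 CPM. It was the most abundant of the 10 genes in CPM and one of the most variable, with Yme1l-/- culture 1 well below the other two. The means were 121 ± 18.6 and 426 ± 79.9 CPM (SD, n = 3), and the fitted log2 fold change was 1.82 ± 0.19 (SE).

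Ddx60 encodes a DExD/H-box helicase that has been linked to RIG-I-like receptor signalling. It lies on the plus strand of chromosome 8 (61928087 to 62038244). WT cultures held 5.28, 5.77 and 4.84 CPM, and Yme1l-/- cultures held 5.23, 7.04 and 7.91 CPM. Yme1l-/- culture 1 lay among the WT values and cultures 2 and 3 lay above them. With means of 5.30 ± 0.467 and 6.72 ± 1.37 CPM (SD, n = 3) and a log2 fold change of 0.35 ± 0.15 (SE), Ddx60 was the 1 gene of the 10 that was not called. Without Yme1l-/- culture 1 the log2 fold change was 0.50 and the gene passed the threshold, and without Yme1l-/- culture 3 it was 0.22 and the gene did not. The authors' combined FPKM (fragments scaled to transcript length and library depth) for Ddx60 was 0.92 in WT and 1.66 in Yme1l-/- cells.

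**Figure D3:**
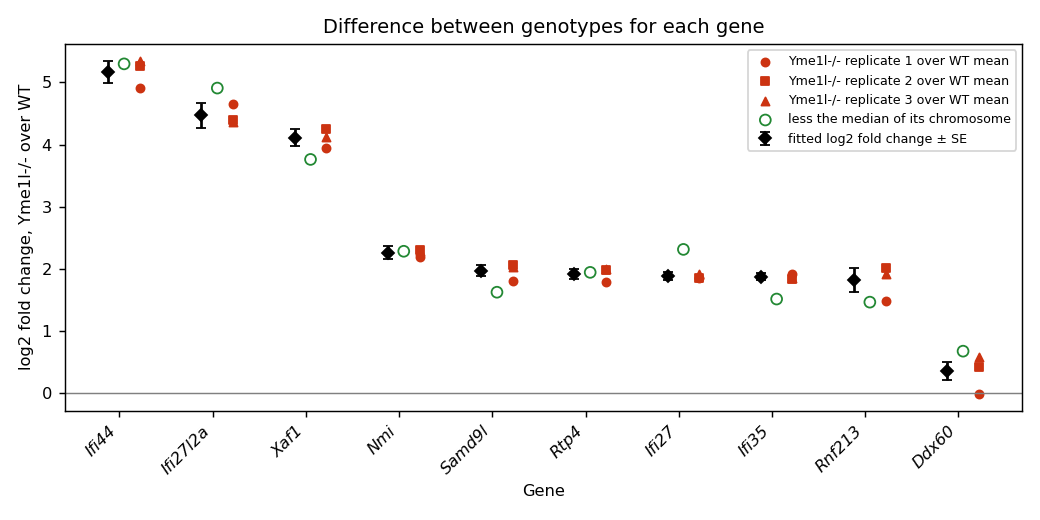
Difference between the genotypes for each gene, as log2 fold change of Yme1l-/- over WT, with black diamonds for the fitted value ± SE, red points for each Yme1l-/- culture over the WT mean and open circles for the fitted value less the median of the gene's chromosome. Ifi44, Ifi27l2a and Xaf1 lie above 4, the next 6 genes lie between 1.82 and 2.26, and Ddx60 lies at 0.35.

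Removal of the median of the gene's chromosome changed the size but not the direction. The 3 genes on chromosome 11, whose median log2 fold change was 0.36, came to 3.76 for Xaf1, 1.51 for Ifi35 and 1.46 for Rnf213. Those on chromosome 12, whose median was -0.44, came to 4.91 for Ifi27l2a and 2.31 for Ifi27. Ddx60, on chromosome 8 with a median of -0.32, came to 0.67. The 10 genes lie on 7 chromosomes. Log2 fold changes of single genes outside the 10 are given without this removal, which would make some of them smaller and others larger.

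The level per kilobase of exon allowed the genes to be put in order. In WT cells Ifi27 was highest at 44.3 ± 2.82 CPM per kilobase (SD, n = 3), followed by Ifi35 at 11.5 ± 0.586, Rnf213 at 7.16 ± 1.1 and Rtp4 at 3.33 ± 0.0989. Samd9l (1.96 ± 0.187) and Nmi (1.86 ± 0.186) did not differ beyond their SD, and neither did Ifi27l2a (0.812 ± 0.271), Ddx60 (0.783 ± 0.069) and Xaf1 (0.757 ± 0.186). Ifi44 was the lowest at 0.122 ± 0.0152 CPM per kilobase.

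In Yme1l-/- cells the first 3 places were kept, by Ifi27 at 163 ± 3.99, Ifi35 at 41.9 ± 1.26 and Rnf213 at 25.2 ± 4.73 CPM per kilobase (SD, n = 3). Ifi27l2a (18.2 ± 2.07), Xaf1 (13.1 ± 1.41) and Rtp4 (12.6 ± 0.965) came next, and the last pair did not differ beyond their SD. Nmi followed at 8.94 ± 0.365, Samd9l at 7.64 ± 0.737, Ifi44 at 4.44 ± 0.687 and Ddx60 at 0.994 ± 0.202. Ddx60 thus went to the end of the order. The order was not the same in the authors' combined FPKM, where Xaf1 stood at 54.1 and Ifi35 at 49.5 in Yme1l-/- cells. The authors' FPKM also differed in the gap between genotypes, at 0.128 in WT and 7.21 in Yme1l-/- cells for Ifi44, and the cause was not tested.

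**Figure D4:**
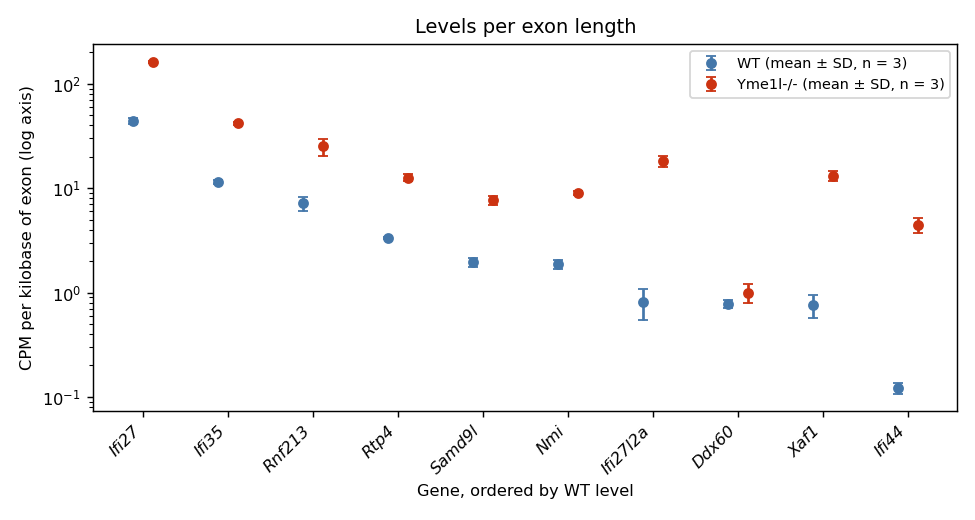
Level of each gene as CPM per kilobase of exon on a log axis, with points for the mean and bars for the SD of 3 cultures, WT in blue and Yme1l-/- in red, ordered by the WT level. Ifi27 is highest in both genotypes (44.3 and 163), and Ifi44 goes from 0.122 to 4.44 while Ddx60 goes from 0.783 to 0.994.

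The spread within a genotype was not used to choose the genes. Their median coefficient of variation was 9.78% in WT and 10.2% in Yme1l-/- cells, against 6.05% and 5.96% over all loci tested. Ifi44 had 10 to 13 and Ifi27l2a 8 to 16 fragments in the WT libraries. Rnf213, at 3427 to 4589 fragments there, had a WT coefficient of variation of 15.4%. The part of low counts in this spread was not tested. Yme1l-/- culture 1 was the lowest of its 3 cultures for 8 of the 10 genes, while it was lowest at 42.1% of all loci and at 40.3% of the loci called higher. Ifi27l2a and Ifi35 were the exceptions, with culture 1 the highest, and in Ifi27 cultures 1 and 2 were almost level. The same culture was lowest for 10 of the 13 interferon signalling genes called higher, but for 5 of the 9 relatives and binding partners called higher. This culture also had the smallest library of its genotype, and the part of depth in its lower values was not tested. Relative to the WT mean, the median log2 ratio of the 10 genes was 1.89 in Yme1l-/- culture 1, 2.03 in culture 2 and 2.01 in culture 3. In Ddx60 the shortfall of culture 1, 0.34 below the mean of its genotype on the log2 scale, was about as large as the difference of 0.35 between the genotypes.

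Among the WT cultures, culture 2 was the highest for 5 of the 10 genes and the lowest for none, while it was highest at 31.8% of all loci. It was highest for 7 of the 13 interferon signalling genes called higher. These orders are descriptions of 3 cultures and were not tested.

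**Figure D5:**
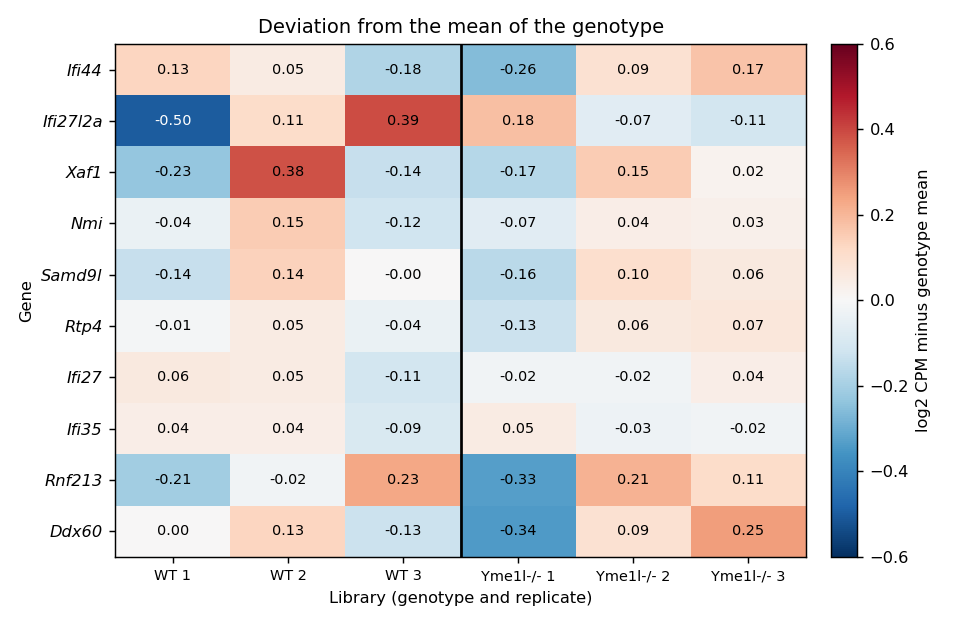
Deviation of each library from the mean of its genotype, in log2 CPM, with 1 row per gene and 1 column per library (blue lower, red higher). Yme1l-/- culture 1 is the lowest of its genotype in 8 of 10 rows, with the largest shortfall in Ddx60 (-0.34) and Rnf213 (-0.33), and the widest WT spread is that of Ifi27l2a.

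Close relatives and binding partners of the 10 genes were read from a list of 26 symbols, of which 17 had a locus that could be tested. Of these, 9 rose and 3 fell (33.6% and 34.1% of all loci), with a median log2 fold change of 0.44. The RIG-I-like receptor genes, whose products Ddx60 has been linked to, were all higher. Dhx58, which encodes the regulator LGP2, rose from 3.08 ± 0.372 to 30.2 ± 1.69 CPM (SD, n = 3; log2 fold change 3.30 ± 0.10, edgeR adjusted p = 2.1e-10). Ddx58, which encodes RIG-I, rose by 2.31 ± 0.08 (log2, edgeR adjusted p = 2.1e-09) and Ifih1, which encodes MDA5, by 0.65 ± 0.09 (log2, edgeR adjusted p = 8.3e-05). Ddx60 itself had 0.35 ± 0.15, and its difference from these genes was not tested.

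Stat5a, a transcription factor of the STAT family to which Nmi binds, rose by 0.70 ± 0.09 (log2, edgeR adjusted p = 4.6e-05). Myc, named after its value was seen, fell by 0.17 ± 0.06 on the log2 scale (edgeR adjusted p = 0.0378), and Mycn, at 1 to 18 fragments a library, was too low to be tested. Exosc4, a subunit of the RNA exosome, rose by 0.83 ± 0.07 (log2, edgeR adjusted p = 1.4e-06), while Exosc1, another subunit, had a log2 fold change of -0.02 ± 0.05 and was not called (edgeR adjusted p = 0.795). Nr4a1, a nuclear receptor of the immediate early response, fell from 30.5 to 15.7 CPM (log2 fold change -0.96 ± 0.07, edgeR adjusted p = 4.1e-07). Ifi44l, the sister gene of Ifi44, had 1 fragment in the 6 libraries together, so the pair could not be compared. Ifi27l1 had no locus in the table.

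The interferon signalling list held 21 symbols, of which 20 could be tested, and 13 rose while 5 fell. Its median log2 fold change was 0.46, and the shares called over all loci were 33.6% higher and 34.1% lower. Among the transcription factors that act at the GAAA element, Stat2 rose by 1.76 ± 0.08 (log2, edgeR adjusted p = 7.5e-09). Irf9, whose locus was joined with Rnf31 in the table, rose by 0.82 ± 0.05 (log2, edgeR adjusted p = 4.2e-08). The counts of a joined locus cannot be divided among its genes.

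The steepest of the list was Usp18, an inhibitor of receptor signalling that is itself interferon-stimulated, with a log2 fold change of 3.10 ± 0.14 (edgeR adjusted p = 2.9e-08). Irf7, a factor that drives type I interferon genes, rose by 2.57 ± 0.11 (log2, edgeR adjusted p = 6.3e-09), and Irf1 went from 31.0 to 83.5 CPM (log2 fold change 1.43 ± 0.06, edgeR adjusted p = 6.5e-09). The gene for STING, Tmem173, rose by 0.92 ± 0.06 (log2, edgeR adjusted p = 2.4e-07), while that for cGAS, Mb21d1, fell from 45.8 to 38.8 CPM (log2 fold change -0.24 ± 0.05, edgeR adjusted p = 0.00105). Mb21d1 fell by less than the median of its chromosome, which was -0.36, so relative to that median it was not lower. The others that fell were Socs1, a feedback inhibitor (-0.87 ± 0.18), Irf3 (-0.23 ± 0.05), the receptor gene Ifnar1 (-0.19 ± 0.05) and Tyk2 (-0.17 ± 0.06), all on the log2 scale. Tyk2 too was not lower relative to the median of its chromosome (-0.36). For Socs1, Irf3 and Ifnar1 that median was -0.02, -0.01 and -0.02. The 5 genes that fell were named after their values were seen. Ifnb1, the gene for interferon beta, had 1 fragment in 1 WT library and none elsewhere, which was too few to test. Ifi44, Ifi27l2a and Xaf1 had larger fitted fold changes than any gene of both lists that could be tested. The members were picked on this contrast, so that order is a description and nothing is read from it.

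The loci outside the 10 whose profile over the 6 libraries was most like that of each member were named by the root-mean-square distance of log2 CPM centred on the WT mean. Loci that carry the name of a predicted gene, such as Gm or Rik names, were left out of this search. Tap2, a subunit of the peptide transporter for antigen presentation, was nearest to both Ifi27 (distance 0.02) and Ifi35 (0.04), with 12 CPM in WT, 43.6 CPM in Yme1l-/- cells and a log2 fold change of 1.87 ± 0.06. The nearest locus was Fas for Rtp4 (0.05), Spata13 for Samd9l (0.07), Akna for Rnf213 (0.08) and Fam129a for Nmi (0.08). It was Pax3 for Ifi27l2a (0.11), Calcrl for Xaf1 (0.12), Tril for Ifi44 (0.11) and Eif5al3-ps for Ddx60 (0.07). The distance is a description over 6 libraries, and it is damped for loci with few fragments such as Tril, which was at 0 in all WT libraries.

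Cell type markers were read beside these results. Of 10 fibroblast marker loci tested, 8 fell and 1 rose (34.1% and 33.6% of all loci), and their summed level was 11000 to 11500 CPM in WT and 6720 to 7200 CPM in Yme1l-/- libraries, while Thy1 was at 4 to 6 fragments in WT and at 0 in Yme1l-/- libraries. WT culture 2, the highest WT culture for 5 of the 10 genes, stood apart in some of these markers, with 257 fragments of Dcn against 52 and 51 in WT cultures 1 and 3, 9860 of Col3a1 against 2858 and 2974, and 596 of Pdgfra against 329 and 405. Leukocyte markers summed to 4.17 to 4.52 CPM in WT and 7.37 to 8.0 CPM in Yme1l-/- libraries, and both loci tested of the 9 markers rose (33.6% of all loci). Ptprc, which marks leukocytes in general, had at most 1 fragment in a library, and Adgre1 and Cd3e were at 0 in all libraries. The loci that rose were Cd68 (log2 fold change 1.04 ± 0.14) and Cd14 (0.37 ± 0.14). Too low to be tested were Itgam, at 2 to 4 fragments in WT and 9 to 29 in Yme1l-/- libraries, Csf1r, at 2 to 5 and 11 to 20, and Lyz2, at 0 to 2 and 8 to 12. Endothelial markers summed to 0.888 to 1.43 CPM in WT and 1.67 to 2.0 CPM in Yme1l-/- libraries, and epithelial markers to 32.9 to 34.8 CPM and 0.334 to 0.686 CPM, of which Krt18 made up nearly all in WT. The only endothelial locus tested, Kdr, rose (log2 fold change 0.72 ± 0.22), and both epithelial loci tested, Epcam and Krt18, fell (33.6% and 34.1% of all loci). The part of these markers in the values of the 10 genes was not tested.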

How the data were processed

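Poly(A) RNA of 6 MEF cultures was sequenced in read pairs. The authors mapped reads to GRCm38 (mm10) with HISAT2 2.0.4, assembled loci with StringTie 1.3.3 and compared genotypes with Cuffdiff 2.2.1. Raw fragment counts per locus were deposited by the authors without normalization. The authors also deposited FPKM values, computed by Cuffdiff as 1 combined value per genotype, with log2 ratios, p-values and q-values that were not used. The handling of multi-mapped fragments is not given in the sources used here.

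Counts were filtered with filterByExpr (minimum count 10), scaled by TMM and tested with edgeR 4.0.16 (R 4.3.3) by the two-sided quasi-likelihood test, with robust estimation and Benjamini-Hochberg adjustment over 13867 loci. A call is an adjusted p under 0.05. CPM uses TMM-scaled library sizes. Exon lengths are the union of protein-coding exons in GENCODE (GRCm38). Floors of 3 counts cover counting error only.

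Members and lists were chosen with earlier results of these data known. Named were all members, up to 6 called genes per list with the largest fold changes, family relatives, Stat2, Irf9, the nearest tested loci and the locus most like each member. Values of some list genes that this rule names are not reported here. The code was tested on simulated counts. Alternatives were RLE or upper-quartile scaling, DESeq2 1.42.0, other filters, a replicate block, chromosome medians removed, merged loci dropped and each culture left out.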

Additional observations from a re-analysis of the deposited data

How the results depend on the processing

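The members were picked on this contrast, so the calls of 9 of them, which were the same in every alternative that tested them, are no sign of stability. Ifi27l2a could not be tested under the stricter filter of at least 10 counts per sample. With chromosome medians removed, the median log2 fold change of the members was 2.11 and 5 relatives and binding partners were called lower. Over 14 alternatives, 2 to 5 relatives and binding partners and 4 to 5 interferon signalling genes were called lower. Leaving out 1 culture at a time gave 9 to 10 members called, a median of 1.91 to 2.01, and 8847 to 9406 loci called in all. The log2 fold change of Ddx60 ran from 0.22 to 0.67 over 14 alternatives, and the gene passed the threshold with upper-quartile scaling (0.41), no filter (0.35), no Yme1l-/- culture 1 (0.50), chromosome medians removed (0.67) and cultures 2 and 3 alone (0.49), which describes a gene chosen on this contrast and is not a test of it. The cause was not tested. The last of these and the GAAA spacings of 1 and 3 bases were chosen after seeing the data.

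A replicate block gave 9794 calls over all loci, and Ddx60 had a log2 fold change of 0.33 and passed the threshold. Deviations of same-numbered cultures correlated at 0.144, -0.0939 and 0.048, so the numbers were not taken to pair the cultures. Dropping merged loci left the members as they were, since none of the 10 lies in one. Counts of 8 to 16 fragments in WT limit Ifi44 and Ifi27l2a.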

Other observations

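The nearest tested loci on either side of the 10 genes gave 18 that are not members, of which 11 were called higher and 6 lower in Yme1l-/- cells, with a median log2 fold change of 0.28. Over all loci, 33.6% were called higher and 34.1% lower. These shares make no allowance for the chromosome, and its part in the neighbour counts was not tested. The median log2 fold change was 0.36 on chromosome 11, which carries Xaf1, Ifi35 and Rnf213. It was 0.34 on chromosome 6, which carries Samd9l. Of the 18, 5 were called and at least 2-fold higher, which held for 9.1% of all loci tested. Beside Nmi, Rbm43 (13.3 kb away) rose by 1.13 ± 0.08 and Tnfaip6, which encodes a hyaluronan-binding protein (64.5 kb away), by 2.28 ± 0.21 on the log2 scale (edgeR adjusted p = 3.7e-07 and 2.8e-06). Ppp4r4, 88.6 kb beyond Ifi27l2a, rose by 2.85 ± 0.16 (log2, edgeR adjusted p = 4.7e-08), and Smtnl2, 75.4 kb from Xaf1, by 1.91 ± 0.29 (log2, edgeR adjusted p = 0.00012).

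Other neighbours moved in both directions. Rnd2 begins 46 bases from the end of Ifi35 and rose by 0.85 ± 0.11 (log2, edgeR adjusted p = 2.6e-05). Rpl27, a ribosomal protein gene 2.9 kb on the other side, rose by 0.26 ± 0.05 (log2, edgeR adjusted p = 0.00131), less than the chromosome 11 median of 0.36. Endov, 48 bases from Rnf213, rose by 0.30 ± 0.06 (log2, edgeR adjusted p = 0.00096), also less than the chromosome 11 median of 0.36. Slc26a11, on the other side of Rnf213, fell by 0.38 ± 0.11 on the log2 scale (edgeR adjusted p = 0.0115). Palld, which encodes an actin-associated protein and lies 58 bases from Ddx60, fell by 0.49 ± 0.05 on the log2 scale (edgeR adjusted p = 1.1e-05). Ptgfr, a prostaglandin receptor gene 46.5 kb from Ifi44, fell by 2.15 ± 0.37 on the log2 scale (edgeR adjusted p = 0.00031), and St6gal1, 91.4 kb from Rtp4, fell by 1.93 ± 0.17 on the log2 scale (edgeR adjusted p = 2e-06). The remaining log2 fold changes were 0.93 for Med31 (83.2 kb from Xaf1) and 0.63 for AC154347.1 (8.4 kb from Ifi27). Near Samd9l they were 1.44 for Gm43197 (26.1 kb) and 0.24 for Vps50 (98.8 kb), the latter below the chromosome 6 median of 0.34. Rpsa-ps10, which lies 1657.4 kb from Ifi44, had a log2 fold change of -0.48. Bcl6, 350.8 kb away on the other side of Rtp4, had a log2 fold change of 0.15 ± 0.12 and was not called (edgeR adjusted p = 0.278). Spock3, 912.8 kb beyond Ddx60, averaged 4.77 CPM in WT and was at 0 in the Yme1l-/- libraries.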
